A study of Trichoderma atroviride IMI 206040 with 36 samples.

Results

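The gene tmk-3 (Id. 301235) of *Trichoderma atroviride* encodes TMK3, the stress-activated mitogen-activated protein kinase (MAPK) of this soil fungus. It was taken from the expression table by its JGI number, and it is 1 of the 11863 transcripts listed there. MAP kinases of this branch, of which Hog1 of yeast and p38 of animals are the best known, are switched on when a MAPK kinase phosphorylates them in response to osmotic, oxidative or heat stress, and they then act on transcription factors and other proteins. The kinase is therefore controlled mainly at the protein level, which RNA sequencing does not measure, and the values below are amounts of its transcript. Blue light is sensed in this fungus by BLR-1, a flavin-binding photoreceptor and transcription factor related to White Collar-1 of *Neurospora crassa*, which works together with BLR-2, the relative of White Collar-2. ENVOY, encoded by env-1, is a small light-sensing protein related to VIVID, which in *N. crassa* restrains the White Collar proteins after light.

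Mycelium of the WT strain and of single mutants lacking blr-1, blr-2 or env-1 was grown for 36 h on potato dextrose agar covered with cellophane. Of each strain, 3 replicates were collected 30 min after a pulse of blue light with a dose of 200 μmol⋅m–2, and 3 replicates were kept without the pulse. This gave 24 libraries in 8 groups, called dark and light below. The groups of each strain differed only in the pulse, and Δenv-1 was 1 transformant, in which a hygromycin resistance gene stands in place of the coding sequence of env-1. The authors left out dark replicate 3 of Δenv-1, so the tests used 23 libraries and Δenv-1 in darkness had 2, and the value of the omitted library is given beside them. The protocol calls the replicates biological, and the p-values measure the spread between these samples.

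Depth ranged from 1519260 to 22011847 estimated counts per library. The env-1 transcript was read in every library. It lay between 1.73 and 2.06 CPM (counts scaled to a common library size) in WT darkness and between 106 and 109 CPM in WT light. In Δenv-1 it was higher than in WT, at 32.3 to 39.7 CPM in darkness and 240 to 283 CPM in light. Only the coding sequence was replaced in this strain, and the study places the reads of its env-1 transcript in the 3′ untranslated region that was kept. The counts are summed over the whole transcript, so they do not check the deletion. The Ids of blr-1 and blr-2 are not given in the sources used here, and their deletion was not checked.

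In darkness the tmk-3 transcript lay between 173.3 and 212.6 CPM in the 4 strains, and after the pulse it rose in WT and in Δenv-1, rose less in Δblr-2 and did not pass the test in Δblr-1. It read 211.8, 207.8 and 212.6 CPM in the WT dark libraries and 571.1, 565.4 and 559.4 CPM in the WT light libraries. Dark and light libraries of WT were thus far apart, and each set of 3 lay close together. In Δblr-1 the level was 173.3, 190.5 and 185.8 CPM in darkness and 171.0, 179.1 and 177.7 CPM after light. These groups overlapped, and no Δblr-1 library lay above the WT dark libraries.

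The dark libraries of Δblr-2 read 185.2, 201.3 and 200.7 CPM, and its light libraries read 392.3, 301.8 and 315.5 CPM. All light libraries of Δblr-2 lay above every dark library of the 4 strains and below every light library of WT, and replicate 1 stood above replicates 2 and 3 by 1.30 and 1.24 times. In Δenv-1 the level was 191.1 and 206.2 CPM in darkness, 202.0 CPM in the omitted library, and 581.4, 574.1 and 602.7 CPM after light. The 12 dark libraries thus ran from 173.3 to 212.6 CPM, the 6 light libraries of WT and Δenv-1 from 559.4 to 602.7 CPM, and only Δblr-2 after light fell between.

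**Figure D1:**
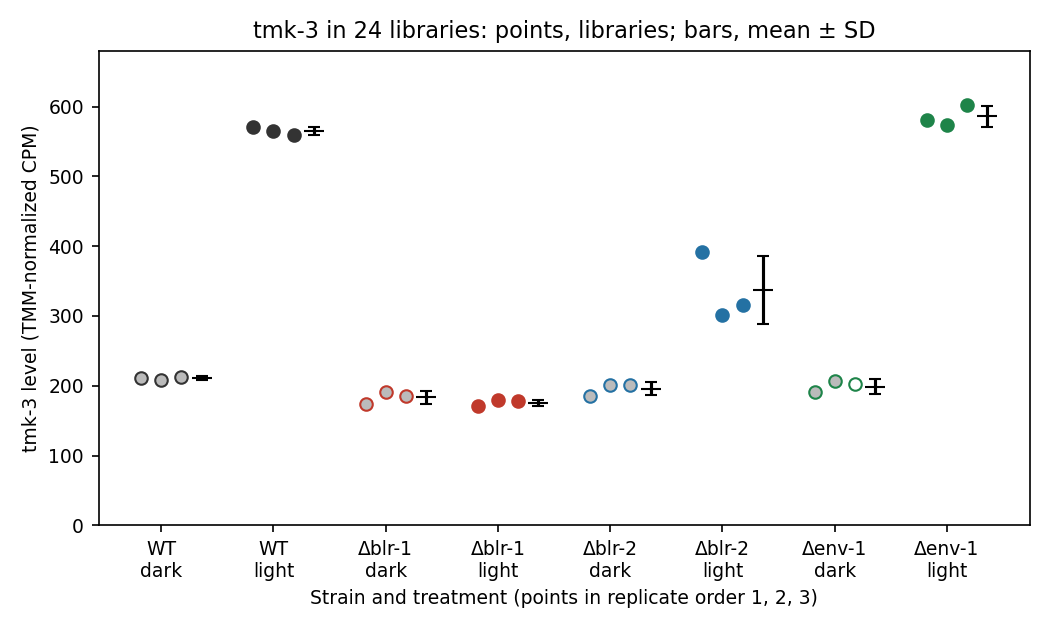
Level of tmk-3 (y axis, TMM-normalized CPM) in each library by strain and treatment (x axis), with dark libraries in grey, light libraries in colour, the omitted Δenv-1 dark replicate 3 as an open circle, and the mean ± SD of the libraries used beside each group (n = 3, or 2 in Δenv-1 darkness). The light libraries of Δblr-1 lie with the dark ones, those of Δblr-2 between 301.8 and 392.3 CPM, and those of WT and Δenv-1 above 559 CPM.

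Ordered by mean, the groups were Δblr-1 light (175.9 ± 4.31 CPM, SD, n = 3), Δblr-1 dark (183.2 ± 8.89), Δblr-2 dark (195.7 ± 9.13), Δenv-1 dark (198.6 ± 10.7, n = 2), WT dark (210.8 ± 2.55), Δblr-2 light (336.6 ± 48.8), WT light (565.3 ± 5.84) and Δenv-1 light (586.1 ± 14.9). Each of the first 4 groups overlapped with its neighbour, whereas the WT dark libraries lay just above the 2 libraries of Δenv-1 darkness. The last pair, WT light and Δenv-1 light, did not overlap but differed by a factor of 1.04. The count behind each value was 262 to 9921, so that counting alone gives an error of 1.0% to 6.18%. The tmk-3 counts were whole numbers in all 24 libraries, to within 1e-06, although 8.33% of the values in the table were not.

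The light response was tested within each strain by edgeR's quasi-likelihood test across 9605 transcripts, with Benjamini-Hochberg adjustment. Calls needed an adjusted p no higher than 0.05 together with a log2 fold change of at least 1 in size. In WT, tmk-3 rose 2.68-fold (95% confidence interval 2.41 to 2.98), a log2 fold change of 1.42 ± 0.074 (SE) with an adjusted p of 6.30e-12. In this comparison 0.927% of transcripts were called higher and 1.28% in either direction, and tmk-3 stood at place 22 by p and at place 94 by log2 fold change. By log2 fold change, 0.968% of transcripts stood above it in WT. In Δenv-1 it rose 2.96-fold (2.62 to 3.34), by 1.56 ± 0.084 on the log2 scale with an adjusted p of 1.42e-11, where 0.968% of transcripts were called higher.

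In Δblr-1 the level of tmk-3 after light was 0.960 times that in darkness (0.861 to 1.07), with a log2 fold change of -0.06 ± 0.076 and an adjusted p of 0.863. The upper bound of that interval is a rise of 1.07-fold, well under the 2.41-fold lower bound in WT. Few transcripts changed in this strain, with 0.198% called in either direction and 1.2% passing the adjusted p alone.

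In Δblr-2, tmk-3 rose 1.70-fold (1.53 to 1.89), by 0.76 ± 0.073 on the log2 scale with an adjusted p of 5.22e-08. It passed the adjusted p but not the fold minimum, so it was not called. The background of this comparison was broad: 20.8% of transcripts were higher and 17.6% lower at the adjusted p alone, and 7.37% were called in either direction. By log2 fold change tmk-3 stood at place 900 of the 9605 transcripts, with 9.36% of them above it. A passing adjusted p was therefore common in Δblr-2. Without light replicate 1, the library with the highest tmk-3 level, the log2 fold change was 0.64 and still passed the adjusted p. That library held the highest of the 3 light values for 38.5% of all transcripts tested and for 78.7% of the 577 called higher in Δblr-2. The 577 were called with this library included, and a high value in it helps a transcript to be called. The 78.7% therefore partly reflects the choice of these transcripts. The part of this library in the size of the response beyond the 0.64 without it was not tested.

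Whether the responses differed between strains was tested as the difference of the log2 fold changes, and here an adjusted p no higher than 0.05 made a call. The tests against WT share the WT libraries. The response in Δblr-1 was lower than in WT by a log2 difference of -1.48 ± 0.11 (adjusted p = 2.90e-09), in a comparison in which 1.38% of transcripts were called. The response in Δblr-2 was lower than in WT by -0.66 ± 0.10 (adjusted p = 9.20e-05), where 19.5% of transcripts were called, and it was higher than in Δblr-1 by 0.82 ± 0.11 (adjusted p = 1.19e-05), where 15.7% were called. On the log2 scale Δblr-2 thus showed 53.7% of the WT response, and both differences, from WT and from Δblr-1, passed the test. In Δenv-1 the response differed from that of WT by 0.14 ± 0.11 with an adjusted p of 1.0, and 0.0208% of transcripts were called. The interval of that difference, from -0.08 to 0.37 on the log2 scale, runs from 0.943 to 1.29 times the WT response, so a response up to 1.29 times as large could not be told from an equal one with these libraries.

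The strain differences were also tested within each treatment. In darkness tmk-3 in Δblr-1 was 0.871 times the WT level (0.782 to 0.969), with a log2 fold change of -0.20 ± 0.074 and an adjusted p of 0.0951, in a comparison in which 2.26% of transcripts were called. Its other dark differences were smaller: the log2 fold change was -0.10 ± 0.074 for Δblr-2 against WT (adjusted p = 0.475, background 4.2%), -0.09 ± 0.082 for Δenv-1 against WT (adjusted p = 0.630, background 1.54%) and 0.10 ± 0.074 for Δblr-2 against Δblr-1 (adjusted p = 0.368, background 3.88%). The 3 dark libraries of Δblr-1 all lay below those of WT, and the adjusted p of that difference was 0.0312 when the fit left out Δblr-2, with a log2 fold change still far under the fold minimum. The intervals of the 4 dark differences lay between 0.782 and 1.20 times.

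After light, tmk-3 was 3.21-fold lower in Δblr-1 than in WT, with a log2 fold change of -1.68 ± 0.076 and an adjusted p of 4.46e-13, and it was called there along with 4.98% of transcripts. In Δblr-2 it was 1.69-fold lower than in WT (log2 fold change -0.75 ± 0.072, adjusted p = 2.50e-08) and 1.90-fold higher than in Δblr-1 (0.93 ± 0.075, adjusted p = 3.00e-09). Both passed the adjusted p, as 47.5% and 40.8% of transcripts did, and both missed the fold minimum, which 12.6% and 10.7% passed as well. In Δenv-1 after light it was 1.04 times the WT level (0.935 to 1.15, adjusted p = 0.701), and 3.52% of transcripts were called.

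The other light-sensing genes, the clock gene and the photolyase genes whose Ids are known were read beside tmk-3. These are env-1, cry-1, the cryptochrome gene cry-DASH, phr-1, and frq, whose *N. crassa* relative is the core gene of the circadian clock. Both cry-1 and phr-1 encode photolyases that repair UV-damaged DNA. Of these 5, 5 were called higher after light in WT and 5 in Δenv-1, where 0.927% and 0.968% of all transcripts were, with a median log2 fold change of 2.09 and 1.97, while the median over all transcripts was 0.00 in both. None was called by edgeR or DESeq2 in Δblr-1 or Δblr-2, where 2 and 1 of the 5 had an unadjusted p under 0.05. Their median there was 0.37 and -0.14, against medians over all transcripts of 0.00 and -0.02. The exception at the adjusted p alone was cry-1, with a log2 fold change of 0.54 ± 0.11 in Δblr-1 (adjusted p = 0.0188) and 0.99 ± 0.10 in Δblr-2 (adjusted p = 1.61e-07). The call of cry-DASH in WT and Δenv-1, at levels under 4 CPM, was lost under some alternatives. The 5 called in Δenv-1 also hold env-1, whose coding sequence is replaced in that strain. The study places its reads there in the kept 3′ untranslated region.

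In Δblr-2, tmk-3 and cry-1 thus rose where phr-1 and frq did not pass the test. The level of phr-1 was 378, 374 and 352 CPM in WT darkness and 948, 954 and 872 CPM in WT light, but 349, 348 and 287 CPM in Δblr-2 darkness and 348, 366 and 372 CPM in Δblr-2 light. Its log2 fold change was 1.33 ± 0.079 in WT (adjusted p = 7.44e-11), close to that of tmk-3, and 0.14 ± 0.079 in Δblr-2 (adjusted p = 0.183), where the groups overlapped. For frq the log2 fold change was 2.25 ± 0.087 in WT and -0.14 ± 0.089 in Δblr-2 (adjusted p = 0.240). The difference between the response of tmk-3 and that of another gene was not tested.

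**Figure D2:**
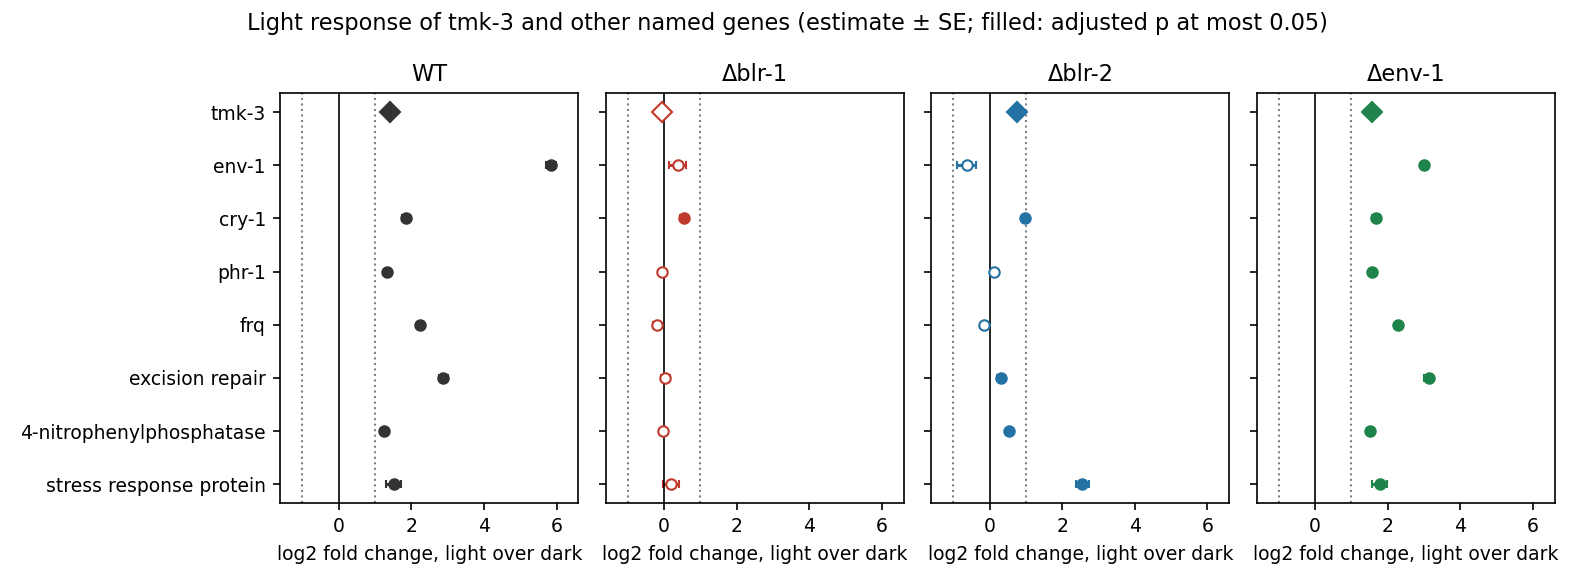
Log2 fold change of light over dark (x axis, ± SE) for tmk-3 (diamond) and 7 other named genes (circles) in each strain, with filled symbols for an adjusted p up to 0.05 and dotted lines at the fold minimum. In Δblr-2 tmk-3 lies at 0.76 with cry-1 at 0.99, while phr-1 and frq lie at 0.14 and -0.14.

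The 4 other genes described as a kinase, a phosphatase or a stress protein in the text or tables of the study were read as well. They were chosen by these words alone and are not a list of the TMK3 pathway. The upstream kinases and the targets of TMK3 were not analysed here. In WT 2 of the 4 were called higher, namely 4-nitrophenylphosphatase (Id. 147790) with 1.25 ± 0.080 and a stress response protein (Id. 151996) with 1.51 ± 0.20 on the log2 scale. The others, fructosamine kinase (Id. 39568) and phosphoserine phosphatase (Id. 219497), gave 0.77 and -0.04 and did not pass the test. In Δblr-1 none of the 4 passed the adjusted p with edgeR or DESeq2, and 1 had an unadjusted p under 0.05. In Δblr-2 4 of 4 were higher at the adjusted p, as 20.8% of all transcripts were, and 2 of them were called, as 7.37% were, with a median log2 fold change of 1.06 against -0.02 over all transcripts.

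Of these genes, 4-nitrophenylphosphatase behaved much as tmk-3 did, with 257, 267 and 235 CPM in Δblr-2 darkness and 391, 369 and 355 CPM in Δblr-2 light. Its log2 fold change there was 0.55 ± 0.079 (adjusted p = 1.31e-05), lower than in WT by -0.70 (adjusted p = 1.16e-04). The stress response protein differed from both, with 28.1, 33.7 and 34.5 CPM in Δblr-2 darkness and 268, 151 and 169 CPM in Δblr-2 light. Its response in Δblr-2, 2.56 ± 0.18, was larger than in WT by 1.04 (adjusted p = 0.00883), while that of tmk-3 was smaller than in WT.

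Genes of DNA repair and DNA metabolism, another group that the study names, were read as well. Of the 9 listed, phr-1 among them, 2 were called higher in WT, against 0.927% of all transcripts, and 2 in Δenv-1, against 0.968%, and in both strains these were phr-1 and the gene of an excision repair protein (Id. 26345). The latter rose from 8.78 ± 0.487 to 64.7 ± 1.98 CPM in WT (SD, n = 3), by 2.88 on the log2 scale (adjusted p = 9.56e-14), against 0.32 in Δblr-2 (adjusted p = 0.0452). The other 7 lay between -0.26 and 0.18 in WT, and none passed edgeR's adjusted p there, while 3 of them had an unadjusted p under 0.05 and 1 passed with DESeq2. In Δblr-2 RAD-1 (Id. 303107) fell by 0.45 on the log2 scale (adjusted p = 2.21e-04) and Id. 129048, a subunit of a type B histone acetyltransferase, fell by 0.20 (adjusted p = 0.0321). In Δenv-1 a DNA polymerase gene (Id. 53190) was higher by 0.27 (adjusted p = 0.0398). The list's median was 0.08 in WT and -0.06 in Δblr-2. The lists above hold genes that the study named on these libraries, so their counts in WT, Δblr-1 and Δenv-1 are not independent of that choice.

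Among the 89 transcripts called higher after light in WT, tmk-3 was at place 58 by its log2 fold change, where the median of the 89 was 1.70. These 89 were chosen by their WT values, so the following counts describe them and carry no test. In Δenv-1, 72 of them were higher at the adjusted p, as 2.83% of all transcripts were, with a median of 1.68. In Δblr-1, 6 were, against 0.552% of all transcripts, with a median of 0.15, and tmk-3 was at place 63. In Δblr-2, 42 were higher and 7 lower, where 20.8% and 17.6% of all transcripts were, with a median of 0.38, and tmk-3 was at place 37. The 89 transcripts were thus spread widely in Δblr-2: 21 showed a larger log2 fold change there than in WT, compared with 4 in Δblr-1 and 44 in Δenv-1. The tmk-3 gene was in the upper part of this spread, below the line of equal response.

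**Figure D3:**
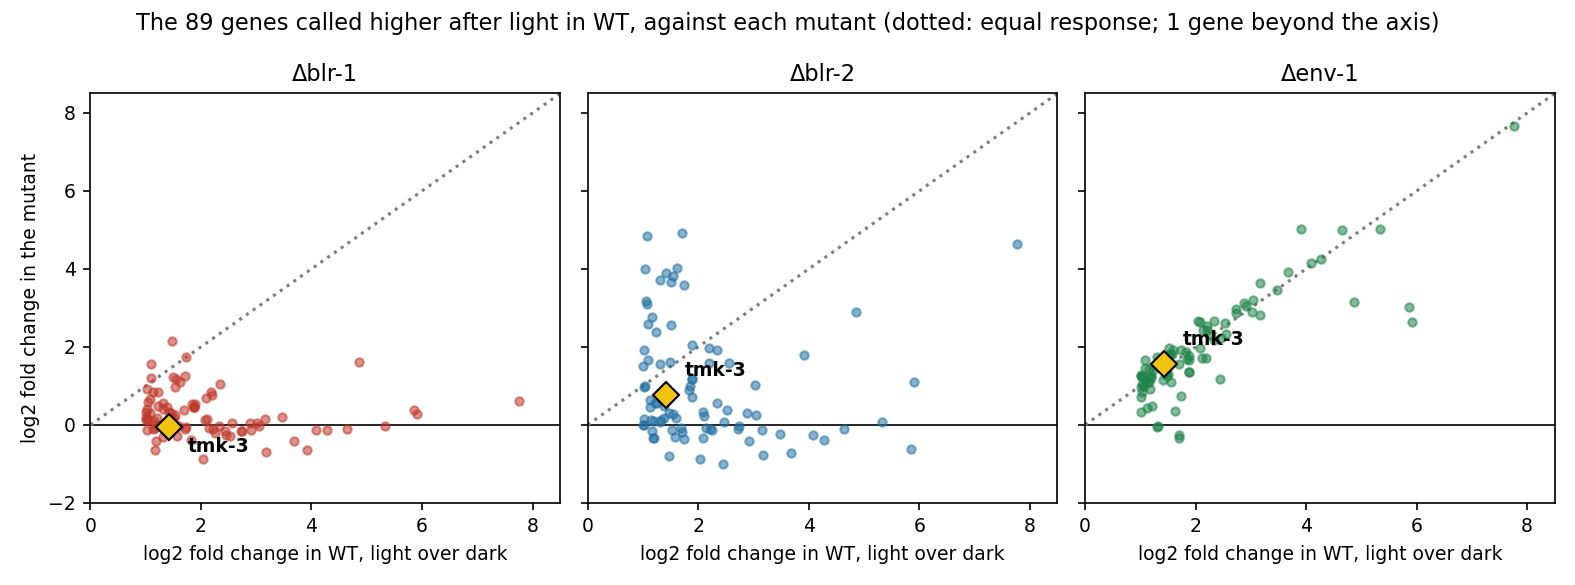
Log2 fold change of light over dark in WT (x axis) against that in Δblr-1, Δblr-2 and Δenv-1 (y axes) for the 89 transcripts called higher in WT, with tmk-3 as a yellow diamond. One transcript, read at a higher log2 fold change in WT, lies beyond the axes, and tmk-3 is at -0.06, 0.76 and 1.56 in the 3 mutants.

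The genes whose pattern was most like that of tmk-3 were found by Pearson's r of log2(CPM + 1) over the 23 libraries, as a description only, since the libraries share the same 8 groups and the same light contrast. Of 9604 other genes, 8 had an r over 0.95 and 34 an r over 0.9. The closest was a gene described as a cell division control protein (Id. 155669, r = 0.98), followed by blu-1 (Id. 300570, r = 0.98), a gene long used as a marker of light induction in this fungus. An exo-alpha-sialidase (Id. 297050, r = 0.98), 4-nitrophenylphosphatase (r = 0.97) and geranylgeranyl diphosphate synthase (Id. 160158, r = 0.97), an enzyme of isoprenoid synthesis, came next. Of the 10 closest, 9 were called higher after light in WT and 9 in Δenv-1, as 0.927% and 0.968% of all transcripts were. In Δblr-2, 9 were higher at the adjusted p, as 20.8% of all transcripts were. The 10 depend on the measure, as most of them did not stay among the 10 by Spearman's rho. They were chosen by their likeness to tmk-3 in these libraries, so the counts above describe the choice and carry no test.

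Most of these genes shared with tmk-3 an intermediate level in Δblr-2 light, the exception at the adjusted p being a cytochrome P450 gene (Id. 302580), with a log2 fold change of 0.18 there and 1.59 in WT. In that strain the log2 fold change was 1.02 ± 0.069 for the cell division control protein against 3.02 ± 0.070 in WT, 4.65 ± 0.29 for blu-1 against 7.76 ± 0.32, and 1.58 ± 0.081 for geranylgeranyl diphosphate synthase against 2.56 ± 0.083. Each of these responses was lower in Δblr-2 than in WT, with adjusted p-values of 4.98e-12, 1.79e-04 and 2.11e-06, where 19.5% of transcripts were called. As the genes were chosen by their likeness to tmk-3 in these libraries, these p-values are not an independent test. Others of the 10 did not pass it, with differences of -0.03 for Id. 208244 (adjusted p = 0.897) and -1.96 for Id. 93152 (adjusted p = 0.179). The r with tmk-3 was 0.91 for phr-1, 0.89 for frq and 0.79 for env-1, none of which passed the test in Δblr-2. It was 0.66 for the stress response protein and 0.41 for fructosamine kinase, which rose there. The r of env-1 includes the Δenv-1 libraries, in which its coding sequence is replaced, so it is not like the others. The lowest r was -0.97, for Id. 297110, which is not described in the study's tables. It fell by 0.87 in WT and by 0.21 in Δblr-2 on the log2 scale, and bld-2 (Id. 301399), which encodes a short-chain dehydrogenase, had an r of -0.93.

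**Figure D4:**
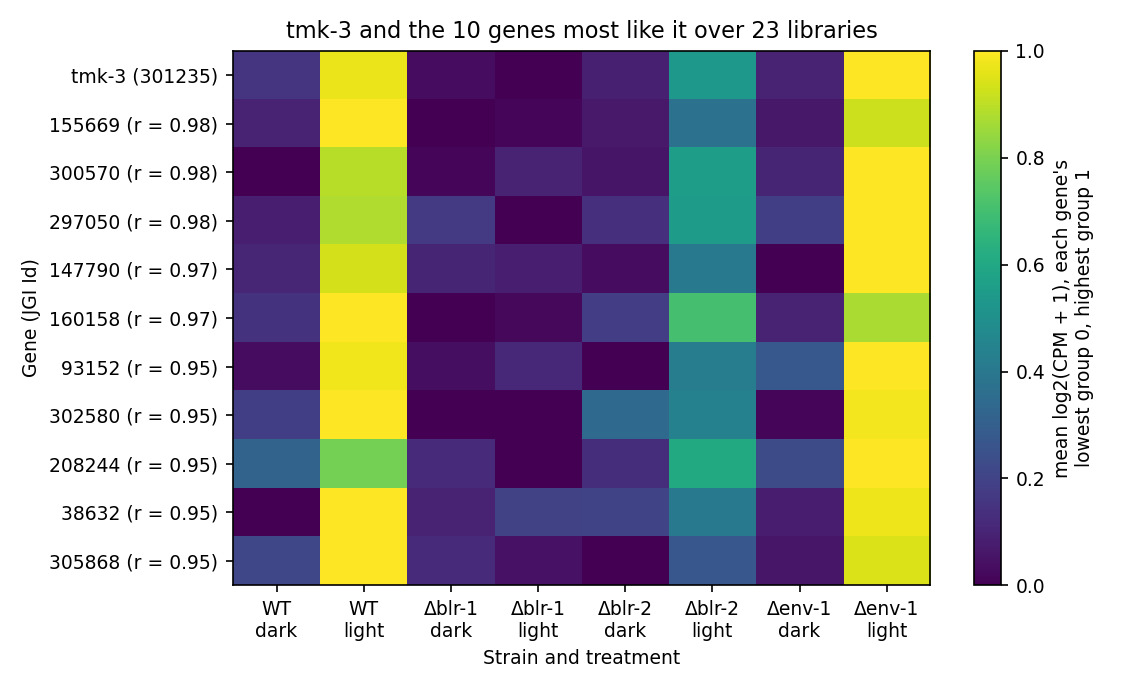
Mean log2(CPM + 1) of tmk-3 and the 10 genes with the highest r (rows) in each strain and treatment (columns), scaled for each gene from its lowest group (0) to its highest group (1), with 2 libraries in Δenv-1 darkness and 3 elsewhere. All rows are high in WT and Δenv-1 light, with r between 0.95 and 0.98, and most are intermediate in Δblr-2 light.

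Within groups tmk-3 varied little, with a pooled SD of 0.086 on the log2(CPM + 1) scale against a median of 0.15 over all genes tested. Among the 500 genes nearest to it in level the median was 0.091, and 43.6% of them varied less, so its spread was usual for its level. Markers of conidia, the asexual spores that a light-exposed colony forms, were summed for each library, as a plate can hold such cells besides the labelled mycelium. The hydrophobin gene (Id. 258295), alb-1 (Id. 217154) and cmp-1 (Id. 323283) were above 0 in all 24 libraries, from 3 counts upward. Their summed level ran from 56.1 to 480 CPM in WT darkness and from 25.9 to 438 CPM in WT light, from 19.6 to 644 CPM in Δenv-1 darkness (952 CPM in the omitted library) and from 13.8 to 34.4 CPM in Δenv-1 light. In Δblr-1 and Δblr-2 it stayed between 16.3 and 43.9 CPM.

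While these markers differed several-fold among the WT dark libraries, tmk-3 ran from 207.8 to 212.6 CPM there, and its r with the 3 markers over the 23 libraries lay between 0.05 and 0.10. In Δenv-1 all 3 markers were called lower after light, as 0.312% of transcripts were, while tmk-3 rose. Of the 2 dark libraries used there, replicate 1 had a summed marker level of 644 CPM. Replicate 2, at 19.6 CPM, lay within the light range of 13.8 to 34.4 CPM, so the fall rests on 1 library of the fit. The study named these markers for their fall in Δenv-1 in the same libraries, so their count is not independent of that choice. In these bulk samples fewer cells of a type and less RNA per cell cannot be told apart.

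The 4 genes next to tmk-3 were taken from the order of genes in the RefSeq annotation of another strain of the species, assembly ASM2064779v1. On the one side these were Id. 34532 and Id. 301237, and on the other Id. 136513 and Id. 179060. None was called after light in WT, where their log2 fold changes were 0.17 and 0.25 on one side and -0.10 and -0.10 on the other, and none was called in any of the 3 mutants, with edgeR or DESeq2. In WT 1 of the 4 had an unadjusted p under 0.05 with edgeR, and 1 passed the adjusted p with DESeq2. In Δblr-2 the pair on the first side was higher at the adjusted p, by 0.74 and 0.24, as were 20.8% of all transcripts. None of the 4 thus reached the fold minimum in WT, which tmk-3 passed.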

How the data were processed

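RNA was sequenced from mycelium of 4 strains in darkness and 30 min after the pulse. Per the methods of the authors, libraries were made with TruSeq and reads went through FastQC and then kallisto, which estimates transcript abundance by pseudoalignment. Versions are not given in the sources used here. What was deposited are estimated counts per transcript without normalization or filter, in which reads shared by similar transcripts are split. The names of 12 other columns matched no single sample, and these columns were not used here.

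Estimated counts were rounded, since 8.33% were not whole. Of 11863 transcripts, 319 had no count and 9605 passed filterByExpr (minimum count 10). After TMM scaling, the 23 libraries were fitted in 1 model with 8 group means by edgeR 4.0.16 (quasi-likelihood test, two-sided, R 4.3.3), with Benjamini-Hochberg adjustment over all transcripts tested and 16 comparisons of tmk-3. CPM were TMM-normalized over the 24 libraries, and correlations used log2(CPM + 1). Levels were not compared between genes, as no lengths were used. The steps for light responses and their differences were tested on simulated data with known changes. The simulation changed genes in WT light only and gave every gene the same spread. It therefore does not cover the broad response of Δblr-2 or the unequal spread of the groups.

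The genes named are tmk-3, those whose Id the study gives as light-sensing, clock, DNA repair, kinase, phosphatase or stress genes, markers of conidia, the 10 genes with the highest and the 5 with the lowest r, and the neighbours of tmk-3. Names and descriptions come from the study. The gene and the lists were chosen with earlier results of these data known, and the study named tmk-3 among light-induced genes of the same libraries. Neighbour order came from a RefSeq table in which 10686 Ids matched.

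Replicate numbers come from the labels. Whether they pair dark and light libraries was checked by correlating deviations from group means across genes. The correlation of same-numbered libraries was 0.251 to 0.595 in WT and 0.125 to 0.269 in Δblr-1. It was 0.0405 to 0.143 in Δblr-2 and 0.0820 to 0.125 over 2 pairs in Δenv-1. The highest correlation of differently numbered libraries was 0.269 in WT, -0.00709 in Δblr-1, 0.0127 in Δblr-2 and 0.0502 in Δenv-1. In WT it was thus above the lowest same-numbered value, and in the mutants below it, so the pairing was not settled for all strains. In Δenv-1 the deviations of the 2 dark libraries mirror each other, so its values say little about pairing. No replicates agreed within sampling noise, as the lowest chi-square was 2.01 per gene. The highest among the fitted libraries was 216 per gene, for the 2 dark libraries of Δenv-1, against 38.3 for the next pair. RLE and upper quartile scaling, other filters, DESeq2 1.42.0, a likelihood ratio test in edgeR, fits of the compared strains alone, of 17 libraries without Δblr-2 and of all 24 libraries, replicate blocks, unrounded counts and each library left out were tried. The intervals of folds are 95% confidence intervals, and counting errors cover counting only.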

Additional observations from a re-analysis of the deposited data

Results flagged for a closer look

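The light response of tmk-3 differed between strains in 3 of the 4 differences tested with edgeR's quasi-likelihood test, as differences of log2 fold changes. It was -1.48 for Δblr-1 against WT (adjusted p = 2.90e-09), -0.66 for Δblr-2 against WT (adjusted p = 9.20e-05) and 0.82 for Δblr-2 against Δblr-1 (adjusted p = 1.19e-05). In every library of WT and Δblr-2 the light level lay above the dark libraries of the same strain, whereas in Δblr-1 the light and dark libraries overlapped. Groups of 3 libraries were too small for a check of single libraries that stand apart.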

How the results depend on the processing

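Each of the 16 comparisons of tmk-3 was refitted under the other settings, which gave 553 values. Of these, 368 came from leaving out single libraries, many of them outside the comparison and so hardly able to move it. The dark differences lay far under the fold minimum, so their calls could hardly change. The tally therefore says little about how stable the results are. None of the 553 values reversed its direction, and 552 stayed on the same side of the call. The exception was Δblr-2 against Δblr-1 in light, whose log2 fold change ran from 0.81 to 1.0 as single libraries were left out and reached the fold minimum without Δblr-2 light replicate 2. The light response ran from 1.40 to 1.43 in WT, from 1.54 to 1.57 in Δenv-1 and from 0.67 to 0.78 in Δblr-2 under the settings other than leaving out single libraries, and from 0.64 to 0.84 in Δblr-2 as libraries were left out. The dark difference of Δblr-1 from WT had adjusted p-values from 0.0213 to 0.295 as libraries were left out, with no call. With a replicate block the light response was 1.42 in WT, -0.07 in Δblr-1, 0.74 in Δblr-2 and 1.54 in Δenv-1, and no call of tmk-3 changed.

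By Spearman's rho, 4 of the 10 genes most like tmk-3 stayed among the 10, and 2 of the 10 for deviations from group means. Of the latter 1 stayed without Δblr-2 light replicate 1, an alternative chosen after seeing the data, so no gene is named for them. The number of transcripts called moved by over 1.5 times in some settings: from 123 to 78 in WT with strains fitted alone, from 19 to 40 in Δblr-1 with the replicate block (5 to 26 as libraries were left out), from 123 to 201 in Δenv-1 with dark replicate 3 and to 225 with the block as well (94 to 207 as libraries were left out), from 133 to 207 for Δblr-1 against WT with the block, and from 2 to between 1 and 56 for Δenv-1 against WT. The call of cry-DASH in Δenv-1 was lost with dark replicate 3, where its log2 fold change was 0.70 (adjusted p = 0.501). Whether the kinase protein changed was not measured, and 2 or 3 libraries a group limit the precision.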
